A study of Mus musculus with 6 samples.

Results

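Cluster 8 was the smallest of the 9 cell clusters in the deposited annotation of CD11b+ bone marrow cells, and it held 274 of 69776 kept cells. Its members were taken from the deposited cell table as the cells with cluster number 8 at the coarsest of the deposited clustering resolutions, and their unique molecular identifier (UMI) counts were read from the raw matrices. The marrow was flushed from long bones and from mandibles of 2-month-old C57Bl/6 mice, and cells carrying CD11b, a myeloid integrin, were enriched on magnetic beads. There were 3 Femur and 3 Mandible libraries of droplet-based 3′ RNA sequencing. Femur replicate 1 came from female and the other 5 libraries from male mice, and the number of mice per library was not stated. The sample labels name femurs and tibiae as the source of the long bone marrow, whereas the study's methods name femurs alone. No treatment or transgene was used, so skeletal site was the designed contrast. The comparison of erythroid with neutrophil content asked what kind of cell carried the haemoglobin transcripts in a preparation selected for a myeloid surface protein.

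Haemoglobin is a tetramer of alpha and beta globin chains, each holding a haem group that binds oxygen. In the marrow, erythroblasts divide while they build up globin, haem and the red cell membrane skeleton under the transcription factors Gata1 and Klf1, and they then stop dividing, lose the nucleus and become reticulocytes that still carry globin RNA. Marrow macrophages hold the dividing erythroblasts in islands and clear the expelled nuclei. CD11b is borne by granulocytes, monocytes and macrophages and is not a protein of mature red cells.

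The globin counts came from 4 adult genes in 2 loci. Hbb-bs and Hbb-bt encode adult beta globin chains and lie on chromosome 7, at chr7:103826534-103828096 and chr7:103812524-103813996 on the minus strand. Hba-a1 and Hba-a2 encode alpha globin and lie on chromosome 11, at chr11:32283511-32284465 and chr11:32296489-32297298 on the plus strand (GENCODE vM21, GRCm38). The 250 bases before the RefSeq start of 3 of them are shown because these genes give the cluster its name. Capitals mark GATAA (the letters of GATA factor sites), CACCC (of Klf factor sites), CCAAT (the CCAAT box) and ATATAA (the TATA box), searched on both strands, and lines read 5′ to 3′ in the direction of the gene (RefSeq, GRCm38.p6).
Hbb-bs, chr7:103827929-103828178, minus strand: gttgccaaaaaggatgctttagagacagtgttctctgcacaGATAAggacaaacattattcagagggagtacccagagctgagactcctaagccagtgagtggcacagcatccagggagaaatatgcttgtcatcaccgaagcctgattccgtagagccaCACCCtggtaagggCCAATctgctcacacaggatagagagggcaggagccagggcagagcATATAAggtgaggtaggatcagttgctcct
Hbb-bt, chr7:103813924-103814173, minus strand: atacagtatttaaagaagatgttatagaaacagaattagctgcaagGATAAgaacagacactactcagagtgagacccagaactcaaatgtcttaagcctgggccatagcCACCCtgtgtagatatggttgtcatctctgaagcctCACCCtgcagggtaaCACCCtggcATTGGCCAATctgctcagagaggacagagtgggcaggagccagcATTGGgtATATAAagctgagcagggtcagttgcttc
Hba-a1, chr11:32283422-32283671, plus strand: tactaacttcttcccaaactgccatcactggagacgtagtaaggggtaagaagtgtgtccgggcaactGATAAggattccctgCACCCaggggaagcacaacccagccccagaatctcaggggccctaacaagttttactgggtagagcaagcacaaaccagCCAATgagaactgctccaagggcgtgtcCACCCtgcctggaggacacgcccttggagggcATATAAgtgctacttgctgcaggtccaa
All 4 windows held all 4 motifs, with no overlap between different motifs. Over 27025 promoter windows of this length, GATAA was found in 23.0%, CACCC in 51.3%, CCAAT in 34.5% and ATATAA in 9.51%, and 132 windows (0.488%) held all 4. In Hbb-bs the GATAA stood 209 bases before the start, the CACCC 90, the CCAAT 76 and the ATATAA 30. Hbb-bt held 3 copies of CACCC and, counting both strands, 3 of CCAAT. The window of Hba-a2 shared a run of 247 identical bases with that of Hba-a1. These matches describe letters and were not tested as binding sites. The GENCODE models of these genes start at other positions than the RefSeq models, so the windows overlap the GENCODE intervals given above.

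The 2 alpha globin transcripts were identical at 537 of 538 aligned bases (99.8%), and the 2 beta globin transcripts at 580 of 626 (92.7%). Of the 91-base windows of Hba-a1, 58.6% occurred unchanged in Hba-a2, and of those of Hbb-bs, 63.2% occurred unchanged in Hbb-bt. The division of reads within each pair is therefore uncertain, and the 4 genes are mostly given as a sum, called haemoglobin here. Where a share of a pair is given, only the difference between groups of cells counted the same way is read.

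Cluster 8 was unevenly spread over the libraries. Femur replicates 1, 2 and 3 contributed 160, 15 and 11 cells, and Mandible replicates 1, 2 and 3 contributed 13, 60 and 15 cells. Femur replicate 1, the female library, thus contributed the most cells and Femur replicate 3 the fewest. Of the kept cells, these made up 1.56% (95% exact Clopper-Pearson interval 1.33 to 1.82), 0.129% (0.0723 to 0.213) and 0.0483% (0.0241 to 0.0863) in the femur-derived libraries. In the mandibular-derived libraries they made up 0.151% (0.0805 to 0.258), 0.686% (0.524 to 0.882) and 0.193% (0.108 to 0.318). Intervals in this report cover counting error only.

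Femur replicate 1 also stood apart in quality. The study's filters had removed 18.5% of its barcodes, against 1.88% to 5.14% in the other 5 libraries. The kept cells of the 6 libraries held 82962160 to 244946998 UMIs in all, with a median of 6924 to 9158 per cell, and cluster 8 itself held 111960 to 1215033 UMIs per library. Of the 274 barcodes, 1 was also a kept cell of another library and 0 were shared between cluster 8 cells of different libraries. The neutrophil-rich cells of that library are therefore described apart from those of the other 5, and values without it are given beside the site differences in cell content and the 4 globins.

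The 4 globins ranked first when genes were ordered by their lowest ratio over the libraries. As a description, since the clustering used these genes, the lowest ratio over the 6 libraries of summed UMIs, scaled to a common library total as CPM, in cluster 8 to that in all other kept cells was 326 for Hbb-bt, 319 for Hbb-bs, 261 for Hba-a1 and 185 for Hba-a2. The next genes were Slc4a1, the band 3 anion exchanger of the red cell membrane, at 112, Alas2, the erythroid enzyme that starts haem synthesis, at 105, and Car2, a carbonic anhydrase, at 46.2. Prdx2, an antioxidant enzyme of red cells, and Xpo7, an export factor of late erythroblasts, followed at 6.52 and 3.94. Of the 20 leading genes, the rest included Slc25a37, Epb41, Atpif1, Rsad2, Hist1h2ae, Specc1, Mkrn1, Ube2c, Sec61g, Pabpc1 and Gm42418, with lowest ratios of 3.08 down to 1.35. The summed cluster thus held more globin than the other kept cells in each library, which does not test its name, since the globins helped to form it. In Femur replicate 1 the summed haemoglobin share was 3.18%, with a median over cells of 0.511%.

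The name haemoglobin-rich did not hold for each cell. The cells fell into separate groups by the share that 26 neutrophil genes took of all UMIs other than the 4 globins. In 74 cells this share was at most 3.91%, in 200 cells it was at least 14.3%, and 0 cells lay between 5% and 10%. The first are called neutrophil-poor and the others neutrophil-rich, with the dividing value of 10% chosen after the distribution was seen. Between 10% and 15% there was 1 cell.

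**Figure D1:**
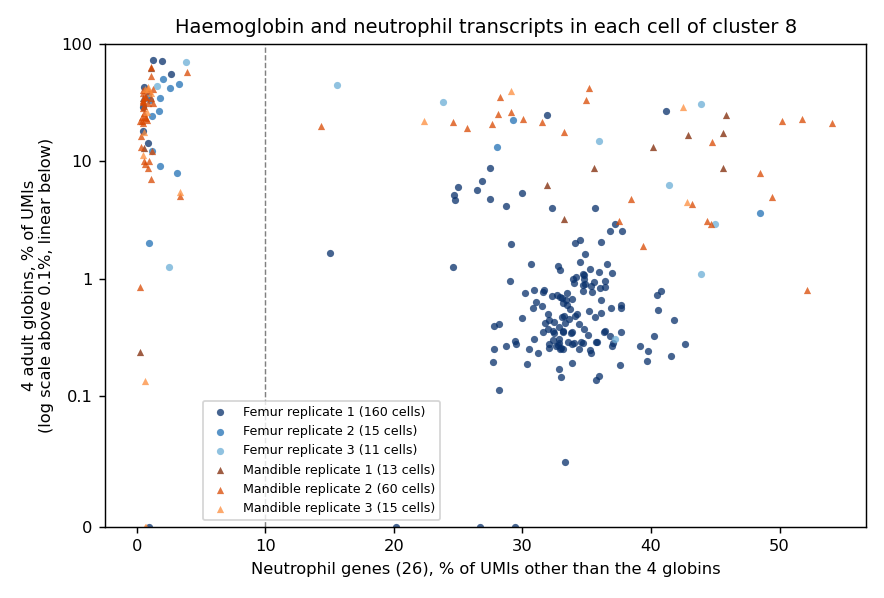
Each point is 1 of the 274 cells of cluster 8, with the share of 26 neutrophil genes among UMIs other than the 4 globins on the horizontal axis (percent) and the share of the 4 adult globins among all UMIs on the vertical axis (percent, log scale above 0.1%). Circles are Femur and triangles Mandible libraries, and the dashed line marks 10%. The 74 cells to its left mostly lie above 5% haemoglobin, and the dense group near 33% neutrophil genes with under 1% haemoglobin is from Femur replicate 1.

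Neutrophil-poor cells numbered 8, 12 and 3 in Femur replicates 1 to 3 and 5, 35 and 11 in Mandible replicates 1 to 3. Neutrophil-rich cells numbered 152, 3 and 8 in the Femur and 8, 25 and 4 in the Mandible libraries. In Femur replicate 1, 95% of the cluster was neutrophil-rich, whereas in Femur replicate 2 and Mandible replicate 3 the figure was 20% and 26.7%. Because the composition of the cluster differed this much between libraries, the 2 kinds of cell were described separately.

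**Figure D2:**
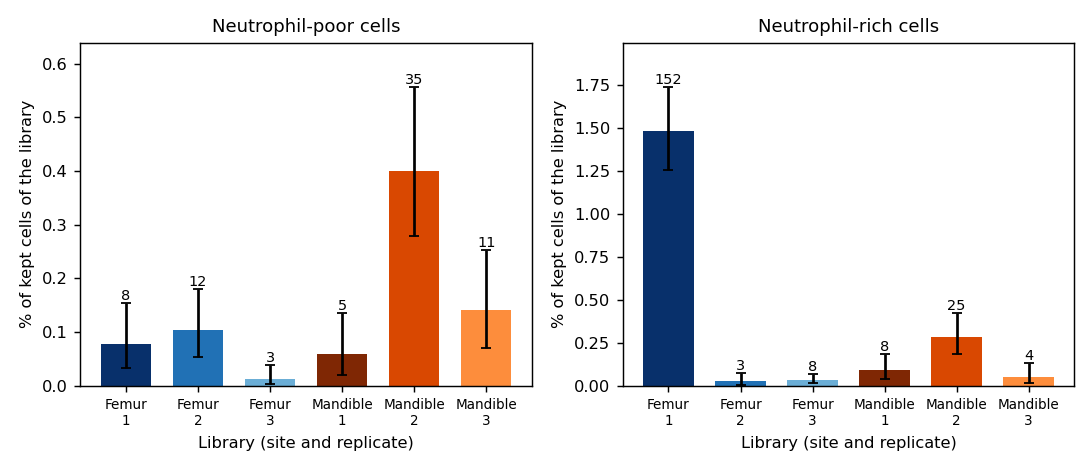
Bars give the percent of kept cells of each library that were neutrophil-poor (left) or neutrophil-rich (right) cells of cluster 8, with exact 95% binomial intervals and the number of cells above each bar. Both axes start at 0 and differ in scale. The neutrophil-rich bar of Femur replicate 1 (152 cells) is above those of the other 5 libraries, and the highest neutrophil-poor bar is that of Mandible replicate 2 (35 cells).

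The neutrophil-poor cells carried an erythroid programme. Haemoglobin made up 31.4% of their summed UMIs, with a median over cells of 27.7%. The summed share was 45.1%, 27.8% and 50.5% in Femur replicates 1, 2 and 3 and 30.8%, 26.2% and 27.5% in Mandible replicates 1, 2 and 3. Every library was thus above 26%, although single cells ranged from 0% to 72.4%. Of the 74 cells, 59 had at least 10% haemoglobin and 9 had at least 50%. The MouseRNA reference of the deposited annotation labelled 62 of the 74 as Erythrocytes. The ImmGen reference instead labelled 40 of them Neutrophils and 17 Stem cells.

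Genes of haem synthesis accompanied globin in these cells. All 13 measured genes of the list of haem synthesis and globin handling were above 5 times their level in clusters 0 to 4, whose cells the ImmGen reference labelled 99.3% Neutrophils. This is a description, as are all ratios between clusters. Lists of other kinds also passed this limit in part, with 12 of 16 S phase, 7 of 16 G2M and 7 of 7 platelet genes. So did 3 of 10 macrophage, 2 of 8 B cell, 3 of 6 enamel and 1 of 5 stem cell genes, and no neutrophil gene. The share over all genes is not given here, so such counts are not read as an excess. The 13 genes summed to 10261 CPM, against 157 CPM in clusters 0 to 4. Alas2 stood at 2028, 1934 and 1361 CPM in the neutrophil-poor cells of Femur replicates 1, 2 and 3 and at 2222, 1769 and 1522 CPM in those of Mandible replicates 1, 2 and 3, all far above the 0.549 CPM of clusters 0 to 4. The mitochondrial iron importer Slc25a37 was summed at 2238 CPM and the mitochondrial carrier Slc25a38 at 76.5 CPM.

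Genes of the red cell membrane were detected throughout the list. Of 18 membrane and skeleton genes, 17 were above 5 times their level in clusters 0 to 4 and all 18 had a UMI, with a sum of 23642 CPM against 650 CPM. Slc4a1 was at 2815, 5544 and 2722 CPM in the Femur libraries and at 4627, 5180 and 3306 CPM in the Mandible libraries, against 0.328 CPM in clusters 0 to 4. After each cell was thinned to 1000 UMIs, Slc4a1 was found in 90.5% of the neutrophil-poor cells (93.2% unthinned). It was found in 0.0992% of thinned cells of cluster 6 (0.397% unthinned), in which B cell genes summed to 18008 CPM and which stands here for a lineage without the gene. The median depths were 3956 and 4285 UMIs.

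Transcription factors and receptors of the lineage were lower in level but present. Gata1, the master regulator of erythroid genes, was at 34.97 to 140 CPM over the 6 libraries, and Klf1, which activates adult beta globin, at 140 to 315 CPM. Hemgn, a nuclear protein of erythroblasts, summed to 1404 CPM, whereas Ldb1, a broadly expressed bridging cofactor, was at 7.92 CPM. Of 10 factors, 7 exceeded 5 times their level in clusters 0 to 4. The erythropoietin receptor gene Epor was at 41.2 to 224 CPM and the transferrin receptor gene Tfrc, which takes up iron, at 804 to 2160 CPM. Kit, the stem cell factor receptor of earlier progenitors, had no UMI in 5 of the 6 libraries and was at 14.0 CPM in Mandible replicate 2. A count of 0 in the neutrophil-poor cells allows up to 42.98 to 124 CPM in those 5 libraries, so no difference between libraries is read from Kit.

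Markers of late maturation were also present. Of 14 genes of this list, 13 exceeded 5 times their level in clusters 0 to 4, with a sum of 10182 CPM against 395 CPM. Xpo7 was at 2808 CPM, against 29.6 CPM. Among enzymes, Car2 was at 3162 CPM and the antioxidant enzyme gene Gpx1 at 3191 CPM, whereas Pklr, the red cell pyruvate kinase, had no UMI, which allows up to 7.92 CPM over the 74 cells. Among embryonic and fetal globins, Hbb-bh1, Hbb-bh2, Hbb-y and Hba-x had no UMI in the neutrophil-poor cells, under the same limit, and the theta globin gene Hbq1b was at 42.98 to 146 CPM over the libraries.

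Transcripts of cycling cells were frequent. The deposited phase calls placed 24 of the 74 in G1, 9 in S and 41 in G2M. The 16 G2M genes summed to 8886 CPM, against 1469 CPM in clusters 0 to 4, and 16 S phase genes to 2544 CPM, against 407 CPM. Mki67, a marker of cycling cells, was at 2644 CPM and Top2a, which untangles DNA before mitosis, at 1293 CPM, whereas both stood at 183 and 260 CPM in clusters 0 to 4. Cells called G1 had a median of 34.1% haemoglobin and 794 detected genes, those called S had 23.6% and 1762 genes, and those called G2M had 23.8% and 1296 genes. The G1 cells thus had the higher haemoglobin share and the fewer genes, over 24, 9 and 41 cells that share libraries, and no test was made over cells. The G1 cells include the 5 cells with platelet genes described below, which held little globin.

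The neutrophil-poor cells were set apart by the 26 neutrophil genes, so their low level is a description. These genes took 1.04% of non-globin UMIs, with a median over cells of 0.830%, and in cluster 6 the summed share was 7.34% and the median 0.581%. The ImmGen reference labelled 13.7% of cluster 6 cells Neutrophils, so cluster 6 is not free of that lineage. After thinning, S100a9, the most abundant neutrophil S100 protein gene, was found in 79.7% of neutrophil-poor cells and in 85.5% of cluster 6 cells, and Camp, a granule antimicrobial peptide gene, in 25.7% and 35.1% (unthinned, 98.6% and 99.6% for S100a9, 70.3% and 74.4% for Camp). Shares at or below those of cluster 6 are not read as expression. Monocyte genes summed to 52.8 CPM and B cell genes to 18.5 CPM, mast cell and basophil genes were at 0 for all 5 members, and macrophage genes summed to 84.5 CPM with 2 of 10 members at 0.

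A few neutrophil-poor cells held little globin. Of the 74, 6 had under 1% haemoglobin, and 3 of these 6 carried the MouseRNA label Erythrocytes. In 5 of these 6, platelet and megakaryocyte genes took at least 1% of UMIs, and these 5 held at most 0.238% haemoglobin. They came from Femur replicate 1 (1 cell), Mandible replicate 1 (1 cell) and Mandible replicate 3 (3 cells). The platelet chemokine genes Pf4 and Ppbp summed to 897 and 559 CPM over the 74 cells, and the 7 genes of the list ranged from 0 to 12095 CPM over the libraries.

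The neutrophil-rich cells of the 5 libraries other than Femur replicate 1 held transcripts of both programmes under the same barcode. These 48 cells had a median of 13599 UMIs and 2505 genes. The medians were 3956 UMIs and 991.5 genes in the neutrophil-poor cells and 7703 UMIs and 1938 genes in clusters 0 to 4. No doublet caller was run, so whether each barcode held 1 cell was not tested. Their neutrophil genes took 39.3% of non-globin UMIs, next to 38.2% in clusters 0 to 4, and haemoglobin took 13.4% of all UMIs, with a median over cells of 17.1%. In Femur replicates 2 and 3 the haemoglobin share was 12.96% and 12.7%, and in Mandible replicates 1, 2 and 3 it was 12.6%, 12.9% and 21.1%. Of these cells, 29 held at least 10% haemoglobin and 2 under 1%. Every one was labelled Neutrophils by the ImmGen reference.

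Other erythroid transcripts came with the globins in these cells. Slc4a1 was at 549 CPM, Alas2 at 570 CPM and Car2 at 517 CPM, against 0.328, 0.549 and 0.983 CPM in clusters 0 to 4. To follow the erythroid content apart from broadly expressed genes, 39 of the 73 erythroid genes that stood under 2 CPM in clusters 0 to 4 were summed. Every one of the 48 cells had at least 1 UMI of these 39 genes, with a median of 42.5 UMIs per cell, and so had each of the 74 neutrophil-poor cells, with a median of 127. In cluster 6, 54.2% of cells had such a UMI, with a median of 1 per cell. Since these genes were chosen for their low level in clusters 0 to 4, their values in those clusters are low by that choice and are not used as a test. Relative to the UMIs of the 39 genes, globin stood at 31.4 globin UMIs per erythroid UMI over the 48 cells and at 10.8 over the neutrophil-poor cells. This ratio was 24.1 to 42.9 in the 5 libraries for the neutrophil-rich cells and 7.93 to 21.6 in the 6 libraries for the neutrophil-poor cells. In the 19 of the 48 cells with under 10% haemoglobin it was 14.4, and in the 14 with under 5% it was 12.3. Choosing cells for low haemoglobin lowers this ratio by itself, so these values are not read against the range of the neutrophil-poor cells.

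The neutrophil side of these 48 cells was that of granule-bearing cells. Secondary granule genes summed to 69812 CPM, against 73624 CPM in clusters 0 to 4, and S100a8 and S100a9 to 257396 CPM, against 289636 CPM. Camp was at 21522 CPM and Ltf, which encodes lactoferrin, at 8602 CPM. Primary granule genes of earlier precursors summed to 210 CPM, against 1165 CPM, and mature neutrophil genes to 2395 CPM, against 4747 CPM. These CPM values count globin UMIs in the total. Of non-globin UMIs, secondary granule genes took 8.06% against 7.36% and the S100 genes 29.7% against 28.97%. On that base primary granule genes (0.0242% against 0.117%) and mature neutrophil genes (0.276% against 0.475%) remained lower. Of the 48 cells, 38 (79.2%) were called G1, against 84.3% in clusters 0 to 4, and 14.6% were called G2M, against 8.60%. S phase genes stood at 228 CPM, below the 407 CPM of clusters 0 to 4, and G2M genes at 1473 against 1469 CPM.

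The neutrophil-rich cells of Femur replicate 1 were different in kind. These 152 cells had a median of 6798.5 UMIs and held a median of 0.483% haemoglobin, or 39 globin UMIs per cell. Of them, 118 had under 1% haemoglobin, 3 had no globin UMI and 2 had at least 10%. Globin was nonetheless present, since after thinning Hbb-bs was found in 89.4% of these cells (98.0% unthinned) and in 1.39% of cluster 6 cells (5.95% unthinned). Over all genes, the 4 globins summed to 11155 CPM in these cells, against 65.1 CPM in clusters 0 to 4 of the same library. The 2 cells of at least 10% haemoglobin held 5573 of the 12916 globin UMIs, and without them the sum was 6459 CPM.

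Erythroid transcripts other than globin differed far less than globin from clusters 0 to 4 of the same library, and not all in 1 direction. Genes of haem synthesis summed to 238 CPM against 155 CPM, enzymes to 834 against 637 CPM, late maturation genes to 429 against 388 CPM and receptors to 251 against 228 CPM. Membrane genes summed to 699 against 762 CPM and transcription factors to 248 against 273 CPM. The 73 erythroid genes took 0.273% of non-globin UMIs in these 152 cells, next to 0.244% in clusters 0 to 4 of the same library. Slc4a1 was at 6.91 CPM and Alas2 at 29.4 CPM, against 0.369 and 0.837 CPM in clusters 0 to 4 of that library, and the transcription factor gene Gata1 had no UMI, which allows up to 2.59 CPM. The 39 restricted erythroid genes took 0.00847% of non-globin UMIs, and 28.3% of the 152 cells had such a UMI. In cluster 6 these values were 0.0212% and 54.2%, and in clusters 0 to 4 of the same library 0.00137% and 10.5%. The genes were chosen for a low level in clusters 0 to 4, so the values there are a description only. Without the 2 cells of at least 10% haemoglobin, 63 UMIs of these genes stood beside 7343 globin UMIs, a ratio of 117. Among the 19 such cells of the other 5 libraries this ratio was 14.4. The difference is between 1 library and the rest, and it has no replicate.

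**Figure D3:**
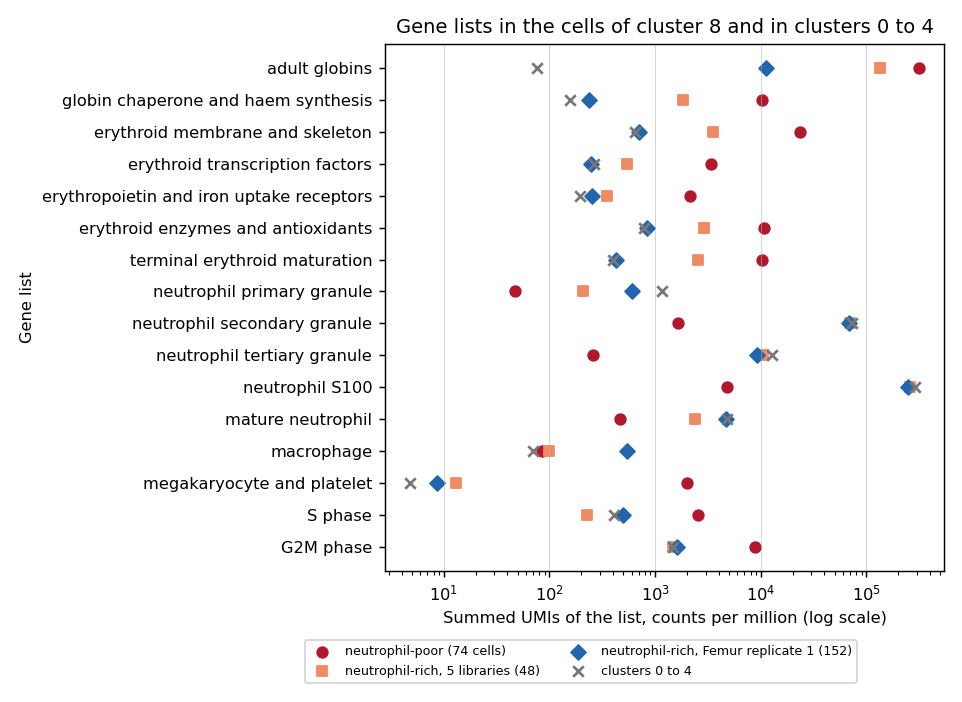
Points give the summed UMIs of each gene list in CPM (log scale) in 4 sets of cells, namely the 74 neutrophil-poor cells, the 48 neutrophil-rich cells of 5 libraries, the 152 neutrophil-rich cells of Femur replicate 1, and clusters 0 to 4. For the 6 erythroid lists below the adult globins, the diamonds of Femur replicate 1 lie close to the crosses of clusters 0 to 4. For the adult globins they lie between the crosses (76.8 CPM) and the squares (133738 CPM).

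The composition of beta globin also differed. Hbb-bt made up 16.1% (95% exact interval 15.3 to 16.9) of the Hbb-bs and Hbb-bt UMIs in the neutrophil-rich cells of Femur replicate 1. In the neutrophil-rich cells of the other 5 libraries it made up 21.4% to 24.7%. Without the 2 cells of at least 10% haemoglobin, the share in Femur replicate 1 was 11.8% (10.9 to 12.7). In the neutrophil-poor cells it was 25.5%, 25% and 20.02% in Femur replicates 1, 2 and 3 and 24.7%, 24.8% and 25.8% in Mandible replicates 1, 2 and 3. Alpha globin made up 36.1% to 41.4% of the haemoglobin UMIs in the neutrophil-poor and neutrophil-rich cells of the 6 libraries.

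**Figure D4:**
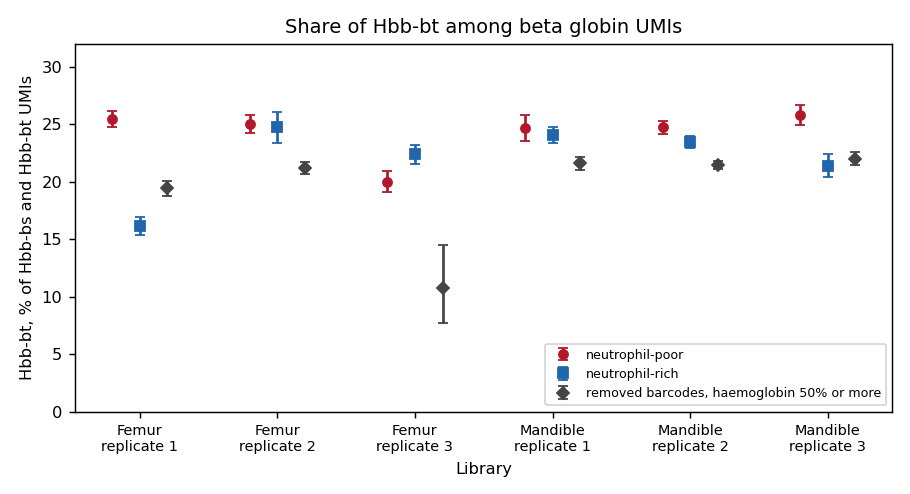
Points give Hbb-bt as a percent of the Hbb-bs and Hbb-bt UMIs in each library for the neutrophil-poor and neutrophil-rich cells of cluster 8 and for barcodes the study removed that held at least 50% haemoglobin, with exact 95% binomial intervals. The neutrophil-rich cells of Femur replicate 1 lie at 16.1%, below those of the other 5 libraries. The low point of the removed barcodes of Femur replicate 3 rests on 1 barcode.

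Other transcripts moved with these 152 cells. The 10 macrophage genes summed to 544 CPM, against 86.4 CPM in clusters 0 to 4 of the same library and 98.5 CPM in the 48 neutrophil-rich cells of the other libraries, with 1 of the 10 (Cd163) at 0. The complement genes C1qa, C1qb and C1qc stood at 92.4, 90.7 and 101 CPM, and the chemokine gene Ccl8 at 66.5 CPM against 0.0598 CPM. Cd74, the invariant chain of antigen presentation, was at 221 CPM against 6.45 CPM, and Mrc1, a mannose receptor of macrophages, at 74.3 CPM against 2.41 CPM. These were named among the genes with the highest ratio of that kind, which were not of macrophages alone. The monocyte genes Ccr2 and F13a1 were at 54.4 and 69.1 CPM, against 1.78 and 2.72 CPM. The antigen presentation gene H2-Aa was at 85.5 against 2.32 CPM. The 5 genes of the monocyte list summed to 1061 against 838 CPM. At least 1 macrophage UMI was found in 88.2% of the cells, against 43.7% in clusters 0 to 4 of that library. The median mitochondrial share was 1.24% against 0.534%. The deposited annotation called 51.3% of the cells S phase, against 7.29%, whereas the 16 S phase genes summed to 497 CPM against 422 CPM. The part of these transcripts, of the mitochondrial share and of the removed barcodes in the globin content of the 152 cells was not tested, and library, sex and mouse cannot be told apart for Femur replicate 1.

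The summed neutrophil content of the 152 cells was near that of clusters 0 to 4, except for primary granule genes. The 26 genes took 33.6% of non-globin UMIs, against 34.9% in clusters 0 to 4 of that library. Secondary granule genes summed to 68519 CPM against 74914 CPM, and mature neutrophil genes to 4691 CPM against 5027 CPM. Primary granule genes summed to 602 CPM against 1115 CPM. All 152 were labelled Neutrophils by the ImmGen reference, and 118 were labelled Granulocytes and 32 Monocytes by the MouseRNA reference.

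The site comparison asked whether femur- and mandibular-derived cells of cluster 8 differed, with the library as the unit (3 against 3). None of 6 summary values differed beyond the spread between libraries. Because the labels do not say that libraries came from separate mice, p-values here measure only the spread between these libraries. The 2-sided exact permutation test over 20 assignments can give no p below 0.1 here, and all 6 Benjamini-Hochberg values were 1. Haemoglobin took 14.4% ± 9.83 (SD, n = 3) of UMIs at the femur and 18.7% ± 5.01 (SD, n = 3) at the mandible (exact permutation p = 0.7). The library values were 3.18%, 21.5% and 18.6% at the femur and 14.9%, 16.8% and 24.4% at the mandible. The sites overlapped, and without Femur replicate 1 the mandible-minus-femur difference turned from 4.28 to -1.33 percentage points.

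The share of kept cells in the cluster behaved likewise. It was 0.579% ± 0.851 (SD, n = 3) at the femur and 0.343% ± 0.297 (SD, n = 3) at the mandible (exact permutation p = 1), and the difference of -0.236 points became 0.255 points without Femur replicate 1. The erythroid share without globins was 2.74% ± 2.73 and 3.31% ± 1.54 (SD, n = 3 each, exact permutation p = 0.8). The neutrophil share was 28.6% ± 10.1 and 28.1% ± 8.69 (SD, n = 3 each, exact permutation p = 0.9). Without Femur replicate 1 these differences turned from 0.574 to -0.540 points and from -0.496 to 1.54 points.

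Phase and depth overlapped as well. Cells called S or G2M made up 42.6% ± 13.5 and 47.8% ± 9.99 (SD, n = 3 each, exact permutation p = 0.5), and the difference of 5.21 points was 12.97 without Femur replicate 1. The median UMI count per cell was 7284 ± 2548 and 8611.5 ± 6379 (SD, n = 3 each, exact permutation p = 0.9), and the difference of 1327 UMIs was 1094 without Femur replicate 1. Library numbers 6 and 7 occur at both sites, and the labels do not say what they mark. Within these numbers the mandible-minus-femur difference in haemoglobin share was -6.60 and -1.75 points, and that in the share of kept cells was 0.0220 and 0.637 points.

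In the neutrophil-poor cells alone, 4 of the 5 differences tested had the opposite sign, whereas the share of S or G2M calls stayed higher at the mandible. These cells include the 5 with platelet genes, 4 of them mandibular-derived, so values are also given for the other 69 cells. Haemoglobin took 41.1% ± 11.9 (SD, n = 3) of UMIs at the femur and 28.2% ± 2.35 (SD, n = 3) at the mandible (exact permutation p = 0.2). Without the 5 cells with platelet genes the difference shrank from -12.97 to -8.22 points (exact permutation p = 0.3). The erythroid share without globins was 9.15%, 9.59% and 10.6% at the femur and 7.51%, 8.69% and 7.81% at the mandible, so the sites did not overlap (exact permutation p = 0.1, the smallest this design allows, Benjamini-Hochberg 0.3 over 5 values). Without those 5 cells it was 9.97%, 9.59% and 10.6% at the femur and 11.7%, 8.69% and 10.003% at the mandible, so the sites overlapped and the difference turned from -1.79 to 0.0708 points (exact permutation p = 0.9). The neutrophil-poor cells numbered 3 in Femur replicate 3 and 5 in Mandible replicate 1, and this subset was chosen after the data were seen. Their neutrophil share, which chose these cells and was not tested, was 1.09% to 2.15% at the femur and 0.531% to 0.883% at the mandible. Cells called S or G2M made up 52.8% ± 12.7 and 68.8% ± 12.3 (SD, n = 3 each, exact permutation p = 0.3), and in the 69 cells 55.2% ± 12.6 and 81.8% ± 6.32 (SD, n = 3 each, exact permutation p = 0.1, with no overlap). The 5 cells left out were all called G1, so the larger difference comes from leaving out G1 cells. Neutrophil-poor cells made up 0.0648% ± 0.0465 and 0.200% ± 0.178 of kept cells (SD, n = 3 each, exact permutation p = 0.3).

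**Figure D5:**
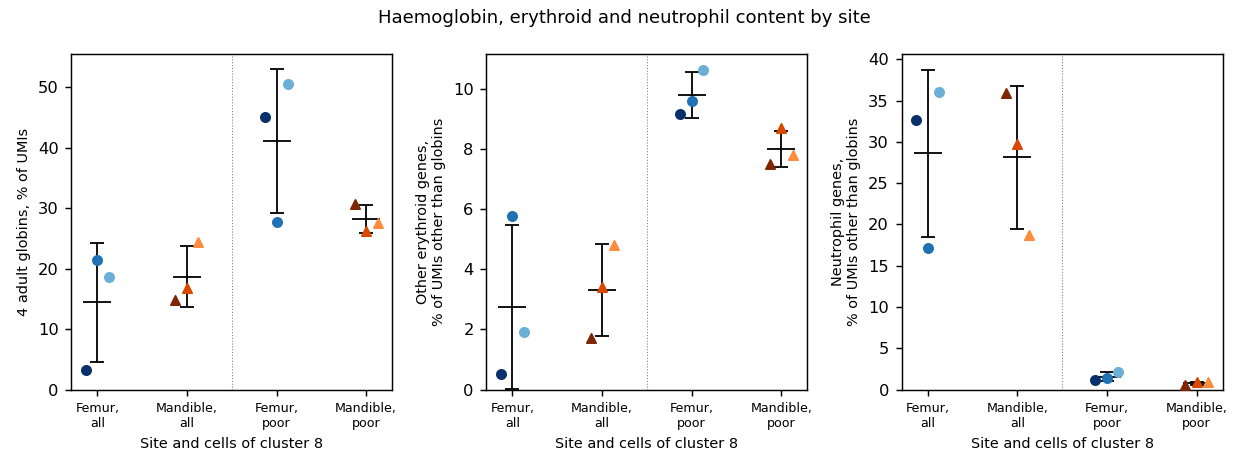
The panels plot, for each library, the share of the 4 adult globins among all UMIs, of the 73 other erythroid genes among non-globin UMIs, and of the 26 neutrophil genes among non-globin UMIs (percent), over all cells of cluster 8 and over the neutrophil-poor cells alone. Circles are Femur and triangles Mandible libraries, and black marks give the mean and SD of 3 libraries. Femur replicate 1 (dark blue) is the lowest point for haemoglobin over all cells, at 3.18%.

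Gene by gene, edgeR's quasi-likelihood test on the summed counts called 0 of 2543 genes at an adjusted p under 0.05 (0% called). At an unadjusted p under 0.05 there were 28 genes (1.1%), 16 higher (0.629%) and 12 lower (0.472%) at the mandible. The libraries of the 2 sites did not overlap for 117 genes (4.6%), 32 higher (1.26%) and 85 lower (3.34%) at the mandible. DESeq2 called 2 genes, Amelx and Cstdc4.

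None of the 4 globins passed. Hbb-bs was at 15420, 95378 and 87831 CPM in Femur replicates 1, 2 and 3 and at 69639, 75896 and 109289 CPM in Mandible replicates 1, 2 and 3. Its log2 fold change, mandible over femur, was 0.33 (SE 0.74, edgeR adjusted p = 1.00). The others were Hbb-bt at 0.40, Hba-a1 at 0.44 and Hba-a2 at 0.22. All 4 became negative without Femur replicate 1, at -0.15 for Hbb-bs, -0.08 for Hbb-bt, -0.05 for Hba-a1 and -0.27 for Hba-a2, and in the neutrophil-poor cells alone they were -0.81, -0.66, -0.74 and -0.84.

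By list, the main edgeR fit called no member of the 24 lists, and DESeq2 called 1, Amelx of the tooth enamel list. Other edgeR fits of all 6 libraries did call list members. A replicate block by title number called Amelx. With no filter on low counts, the 44 genes called included Amelx and Ambn of the enamel list and C1qc of the macrophage list. Haem synthesis genes had a median log2 fold change of 0.45, with 12 of 12 tested genes above 0, and membrane genes one of 0.63, with 17 of 18 above 0, beside a median of 0.02 over all genes tested. Erythroid transcription factors had a median of 0.67 (7 of 7 above 0), receptors of 0.32 (3 of 3), enzymes of 0.31 (5 of 6) and late maturation genes of 0.01 (6 of 12). Femur replicate 1, with its 95% of neutrophil-rich cells, enters each of these values. Without it the medians were -0.18 for haem synthesis (4 of 12 above 0), -0.01 for membrane genes (9 of 18), 0.08 for transcription factors (6 of 7), 0.17 for receptors (2 of 3), -0.13 for enzymes (2 of 6) and -0.52 for late maturation genes (2 of 12). Secondary granule, tertiary granule and S100 genes had medians of 0.00, 0.01 and -0.01. Mature neutrophil genes had a median of -0.85 with 8 of 8 below 0, of which 2 had an unadjusted p under 0.05 and 2 had no overlap, and without Femur replicate 1 the median was -0.62 with 6 of 8 below 0. G2M genes had a median of 0.58 (12 of 14 above 0) and S phase genes one of -0.04 (3 of 8), and without Femur replicate 1 these were 0.22 (9 of 13) and -0.46 (1 of 8).

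Among the filtered fits over all cells of the cluster, genes of the platelet list entered only when a library was left out. With no filter on low counts and all 6 libraries, the 44 genes called included Alox12, whose 67 UMIs all lay in the cells with platelet genes. None of the 7 genes of the megakaryocyte and platelet list passed the filter on low counts with all 6 libraries. Without Femur replicate 1, 4 of them passed it, all above 0 with a median log2 fold change of 8.75 and none called. Without Mandible replicate 2, edgeR called 8 genes, all higher at the mandible, namely Alox12, Ctla2a, Gng11, Gp9, Myl9, Nrgn, Pf4 and Tsc22d1, of which Gp9 and Pf4 are on that list. Their UMIs lay mostly in the 5 neutrophil-poor cells with platelet genes, which held 340 of the 347 UMIs of Pf4, 64 of the 70 of Gp9, all 126 of Myl9 and, at the least, 67 of the 79 of Tsc22d1. In Mandible replicate 1 a single cell held 121 UMIs of Pf4.

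Within the neutrophil-poor cells, edgeR called 0 of 752 genes (0% called), with 49 at an unadjusted p under 0.05 (6.52%), 24 higher (3.19%) and 25 lower (3.32%), and 76 without overlap (10.1%), 57 higher (7.58%) and 19 lower (2.53%) at the mandible. DESeq2 called 0. Late maturation genes were below 0 in 10 of 11 cases, with a median log2 fold change of -0.45 and 2 without overlap, beside a median of 0.01 over all genes. Enzymes were below 0 in 6 of 6 (median -0.24), and G2M genes above 0 in 10 of 12 (median 0.62), with 4 without overlap. Haem synthesis and membrane genes were close to the median of all genes, at 0.05 (7 of 12 above 0) and 0.10 (12 of 17). In the 69 cells without platelet genes, edgeR again made 0 calls over 671 genes (51 had an unadjusted p below 0.05), and the medians were -0.62 for late maturation genes (10 of 11 below 0), 0.73 for G2M genes (10 of 12 above 0) and 0.23 for membrane genes.

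Single genes of those lists, chosen after their values were seen, follow. Bpgm makes the 2,3-bisphosphoglycerate that lowers the oxygen affinity of haemoglobin. It was at 1434, 874 and 1155 CPM in the neutrophil-poor cells of Femur replicates 1, 2 and 3 and at 801, 377 and 227 CPM in those of Mandible replicates 1, 2 and 3 (log2 fold change -1.54, SE 0.63, edgeR adjusted p = 0.71). Mki67 was at 1556, 2092 and 1361 CPM at the femur and at 2550, 3244 and 3499 CPM at the mandible (log2 fold change 0.71, SE 0.38, edgeR adjusted p = 0.77). The libraries of the sites did not overlap for either gene, and neither passed the test. In the 69 cells without platelet genes the sites overlapped for Bpgm, which reached 1083 CPM in Mandible replicate 1, and not for Mki67.

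Among the genes without overlap and with a mean of at least 100 CPM over all cells of the cluster, Cstdc4, a stefin-family gene, had the lowest p of those lower at the mandible. It was at 153, 305 and 133 CPM in Femur replicates 1, 2 and 3 and at 4.59, 12.4 and 0 CPM in Mandible replicates 1, 2 and 3 (log2 fold change -4.54, SE 0.69, edgeR adjusted p = 0.12). Without Femur replicate 1 its edgeR adjusted p was 0.0275, and without any other single library it was 0.0629 to 0.898. The log2 fold change ranged from -3.99 without Femur replicate 2 to -5.85 without Mandible replicate 2. In Femur replicate 2, 1 cell held 36 of the 37 UMIs of Cstdc4. Of its 251 UMIs over the cluster, 1 lay in the neutrophil-poor cells, so these values rest on the neutrophil-rich cells. Genes of the stefin family lie close together and are alike in sequence, so the division of reads among them is uncertain. Il1b, which encodes interleukin-1 beta, was at 715, 90.6 and 209 CPM at the femur and at 36.8, 80.4 and 0 CPM at the mandible (log2 fold change -2.79, SE 0.91, edgeR adjusted p = 1.00), and its log2 fold change was -1.77 without Femur replicate 1 and -3.80 without Mandible replicate 2. With no filter on low counts the edgeR adjusted p was 0.000543 for Il1b and 8.67e-08 for Cstdc4. Alcam, Cytip, Entpd1 and Xylt1 followed, with log2 fold changes of -1.44, -1.03, -0.995 and -0.83. Without Femur replicate 1 these were -1.08, -0.80, -0.52 and -0.59. Cstdc4, Il1b and these genes all failed the filter on low counts in the neutrophil-poor cells.

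In the other direction, the 6 such genes of lowest p were Fnip2, Paip2, 1810058I24Rik, Ly6g, Atp6v0b and Kif5b, with log2 fold changes of 1.02, 1.11, 1.00, 0.88, 0.77 and 0.61. Each had an edgeR adjusted p of 1.00. With 1 library left out, their lowest values were 0.57, 0.85, 0.57, 0.53, 0.47 and 0.44 in the same order. The highest were 1.19, 1.61, 1.23, 1.23, 1.13 and 0.75. Ly6g, the surface antigen that defines mouse neutrophils, was at 384, 107 and 381 CPM in the Femur libraries and at 579, 512 and 447 CPM in the Mandible libraries. Paip2, which curbs translation by binding the poly(A)-binding protein, was at 59.3, 115 and 38.1 CPM in the Femur and at 124, 118 and 188 CPM in the Mandible libraries. In the neutrophil-poor cells its log2 fold change was 1.70, and it failed the filter on low counts without the cells with platelet genes. That of 1810058I24Rik was 1.86 and, without those cells, -0.28. Ly6g, Atp6v0b and Kif5b failed the filter in the neutrophil-poor cells.

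Tooth enamel transcripts were found in a few cells at the mandible. Amelx, which encodes the enamel matrix protein amelogenin and is named because DESeq2 called it, was at 0 in the 3 Femur libraries, where a count of 0 allows up to 2.47, 24.7 and 19.0 CPM (3 counts per library). It was at 257, 192 and 71.5 CPM in Mandible replicates 1, 2 and 3 (edgeR adjusted p = 0.12). These values rest on 157 UMIs in 5 cells, of which 1 cell of Mandible replicate 2 held 92 and 1 cell of Mandible replicate 1 held 50, and the latter is among the 5 cells with platelet genes. After thinning it was found in 4.17% of the 48 neutrophil-rich cells of 5 libraries (6.25% unthinned), in 1.35% of the neutrophil-poor cells (2.70% unthinned) and in 0.694% of cluster 6 cells (1.88% unthinned). The list of 6 enamel genes summed to 0 CPM in the Femur and 71.5 to 280 CPM in the Mandible libraries for cluster 8, and to 0.0446 to 0.139 and 16.3 to 273 CPM for the other clusters of the same libraries.

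Haemoglobin outside cluster 8 was scarce among kept cells. It took 0.00235% to 0.0814% of UMIs in clusters 0 to 7, and cluster 8 held 90 of the 109 kept cells (82.6%) with at least 10% haemoglobin. Of those 109, 59 were neutrophil-poor and 31 neutrophil-rich cells of cluster 8, and 11 lay in cluster 5, 6 in cluster 1 and 2 in cluster 0. At 1% haemoglobin or more, cluster 8 held 148 of 236 kept cells (62.7%).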

How the data were processed

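Droplet-based 3′ gene expression libraries of CD11b-selected marrow were processed by the authors with Cell Ranger (7.0.1 in the methods, 7.1.0 in the matrix headers) against mm10, and strand use was not stated. The deposited matrices hold UMI counts per gene and cell, not normalized. Barcodes outside 600 to 6000 detected genes or above 20% mitochondrial UMIs had been dropped by the authors, who normalized with SCTransform, integrated and clustered the cells in Seurat, and labelled them with SingleR. The deposited cell table gives the cluster, cell labels, phase and mitochondrial percent. The deposited table of cluster markers, with the authors' fold changes and p-values, was not used. No doublet caller was run here and none is named in the methods.

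Counts of the 274 cells were summed per library and tested with edgeR 4.0.16 in R 4.3.3 (quasi-likelihood, TMM, filterByExpr, Benjamini-Hochberg 0.05), with DESeq2 1.42.0 as an alternative. Shares were compared with a 2-sided exact permutation test over libraries (scipy 1.17.1). Intervals are 95% Clopper-Pearson intervals and, like the floor of 3 counts, cover counting error only. Cells were thinned to 1000 UMIs for shares of cells with a UMI, which left out 1 neutrophil-rich cell and 1 cell of cluster 6. Gene IDs matched GENCODE vM21 for 32158 of 32285 genes, and 198 of 199 genes of 24 lists were in the matrices. The test scripts were tested on simulated data. Named genes were the 4 globins, list members given as examples, the 20 genes of highest lowest-library ratio to other cells with at least 100 CPM in each library, and, between sites, called genes and the 6 in each direction of lowest p without overlap and with a mean of at least 100 CPM, leaving out Xist, Tsix and Y-linked genes. Other genes named were chosen after their values were seen. The members and lists were chosen with earlier results of these data known. Alternatives covered normalization, filtering, blocking, left-out libraries and subsets of cells. Values of some list members are not reported here.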

Additional observations from a re-analysis of the deposited data

Results flagged for a closer look

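Signal outside the cells of cluster 8 was seen in 2 places. The filters of the study had removed 82 barcodes with at least 50% haemoglobin, at 6, 12 and 1 in Femur replicates 1, 2 and 3 and 12, 41 and 10 in Mandible replicates 1, 2 and 3. Of these, 81 held under 600 genes. Their median was 187.5 genes and 3292.5 UMIs, haemoglobin took 82.7% of their UMIs, and the 73 other erythroid genes took 18.0% of the remainder. Only 11 kept cells reached that haemoglobin share, 9 of them neutrophil-poor cells of cluster 8.

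Within the kept cells of clusters 0 to 7, 19 had at least 10% haemoglobin, 11 of them in cluster 5. Over the 19 cells, the median share of non-globin UMIs was 5.12% for neutrophil genes and 2.25% for erythroid genes other than globins. The median depth was 10797 UMIs. In the 11 cells of cluster 5 the median neutrophil share was 0.795%.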

How the results depend on the processing

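Of 77 values of the site comparison under alternatives, 54 kept their direction and call but not always their size, 7 counts of genes moved and 16 reversed, and of 223 values of named genes 192 kept their call and direction, 6 passed the threshold only under the alternative and 25 reversed. The cause was not tested. Leaving out 1 library at a time gave differences (mandible minus femur) of -0.501 to 0.255 points for the share of kept cells, -1.33 to 7.81 for haemoglobin, -0.540 to 2.10 for the erythroid share, -6.26 to 4.20 for the neutrophil share, -0.0432 to 12.97 for S or G2M calls, and -2355 to 3219 UMIs per cell. Signs turned without Femur replicate 1 for the first 4 of these, without Femur replicate 3 for the neutrophil share (3.23), without Mandible replicate 3 for the erythroid (-0.170) and neutrophil shares, without Mandible replicate 2 for S or G2M calls, and without Mandible replicate 1 for UMIs. In the neutrophil-poor cells only, a subset chosen after seeing the data, the differences were 0.135 for the share of kept cells, -12.97 for haemoglobin, -1.79 for the erythroid share and -2508 UMIs per cell, and, with the direction kept, 16.1 for S or G2M calls. The neutrophil share, which chose these cells, was not tested in them. Without the 5 cells with platelet genes, also chosen after seeing the data, they were 0.122, -8.22, 0.0708, -2719 and 26.6 in the same order, and 0 genes were called. Genes called numbered 0 in the edgeR fit, 2 with DESeq2, 44 with no filter on low counts, and 0 to 8 with 1 library left out (1 without Femur replicate 1, 8 without Mandible replicate 2). Same-numbered replicates did not all deviate together (r = 0.617, 0.334 and -0.191), so the numbers were not taken to pair the samples, and a replicate block by title number called 2 genes, Amelx and Cstdc4 (edgeR adjusted p = 0.0055 for Cstdc4). A block by library number over 4 libraries called 1 gene, Amelx, and gave Il1b a log2 fold change of -1.36, and the crossed block, added after seeing the data, called 2 (r = -0.635 and -0.162 for the uncrossed pairs). The log2 fold changes of Hba-a1, Hbb-bt, Hbb-bs and Hba-a2 were -0.35, -0.26, -0.34 and -0.43 with either library number block, -0.053, -0.083, -0.15 and -0.27 without Femur replicate 1 and 0.78, 0.89, 0.67 and 0.72 without Femur replicate 2, the lowest and highest with 1 library left out, -0.74, -0.66, -0.81 and -0.84 in neutrophil-poor cells, -0.62, -0.53, -0.68 and -0.71 in those without platelet genes, and -0.72, -0.63, -0.79 and -0.82 in neutrophil-poor cells with DESeq2, and that of 1810058I24Rik was -0.28 in those without platelet genes. Depth limits the smaller libraries, in which a count of 0 allows up to 26.8 CPM over all cells of the cluster and up to 124 CPM over the neutrophil-poor cells.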
